A study of Homo sapiens with 18 samples.

Results

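ATP-binding cassette (ABC) transporters were examined in 3 lung cancer lines, A549, HCC827 and NCI-H358, as parental cells and as their TGFβ-induced mesenchymal derivatives. All are established human non-small cell lung cancer lines. The members were taken by name, as every row whose symbol is ABC followed by a subfamily letter from A to G and a number, and 45 of the 19849 genes of the table met this rule. Each line was represented by 3 arrays of untreated parental cells and 3 arrays of cells kept in 2 ng/ml TGFβ for 3 weeks by the labels, which gives 6 groups and 18 arrays. The general methods instead state 2 to 3 weeks of exposure in A549 and a longer span, 3 to 5 weeks, in HCC827 and NCI-H358, so the time in TGFβ may have differed between lines. By the same general methods, cells were re-seeded without the cytokine on the day before an experiment. If this held for the arrays, both states were without added TGFβ when RNA was taken. The array methods do not state it. The labels name no genetic change in any group. HCC827 depends on mutant EGFR. Levels are log2 signals after robust multi-array averaging (RMA), and a step of 1 on this scale is 2-fold. Each gene was read by 1 probe set, so levels are compared between groups. Levels of different genes are set side by side only as a rough guide to low signal.

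ABC proteins bind and hydrolyze ATP through a pair of nucleotide-binding domains and, in most members, use that energy to carry a substrate across a membrane. Subfamilies B, C and G include the pumps that export drugs and conjugated metabolites, subfamily A and part of G move cholesterol and phospholipids, subfamily D serves peroxisomes and lysosomes, and several B members sit in the inner mitochondrial membrane. Members of subfamilies E and F lack membrane-spanning segments and act in translation. In lung, drug exporters are found on airway and alveolar epithelium, and ABCA3 loads surfactant lipid into the lamellar bodies of alveolar type II cells. The 45 members were sorted by these roles into 9 drug efflux, 12 lipid, 5 other ABCA, 3 peroxisomal, 4 mitochondrial, 2 lysosomal and 4 soluble genes, plus 6 channel regulators and other ABCB or ABCC genes. The last class holds ABCC13, which RefSeq lists as a transcribed pseudogene.

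Promoter sequences are shown for 4 drug efflux genes, namely ABCC2, ABCC4 and ABCG2, which were lower upon EMT in A549 and HCC827, and ABCC5, which was higher in HCC827. Each is the 250 bases before the RefSeq start on GRCh38.p14, written 5′ to 3′ on the strand of the gene. Capitals mark GCGTG, the core of the element bound by the aryl hydrocarbon receptor, and TGACNNNGC, the core of the antioxidant response element bound by NRF2, in either orientation. They were also searched for CAGGTG, an E-box of the kind bound by the EMT factors of the ZEB and SNAI families. The intervals are chr10:99782390-99782639 on the plus strand for ABCC2 and, on the minus strand, chr13:95301452-95301701 for ABCC4, chr4:88158640-88158889 for ABCG2 and chr3:184017885-184018134 for ABCC5.
ABCC2: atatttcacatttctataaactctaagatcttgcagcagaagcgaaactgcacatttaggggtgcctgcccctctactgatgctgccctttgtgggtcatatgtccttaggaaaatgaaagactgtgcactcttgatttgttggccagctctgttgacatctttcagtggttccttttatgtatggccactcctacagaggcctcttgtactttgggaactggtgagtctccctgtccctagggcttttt
ABCC4: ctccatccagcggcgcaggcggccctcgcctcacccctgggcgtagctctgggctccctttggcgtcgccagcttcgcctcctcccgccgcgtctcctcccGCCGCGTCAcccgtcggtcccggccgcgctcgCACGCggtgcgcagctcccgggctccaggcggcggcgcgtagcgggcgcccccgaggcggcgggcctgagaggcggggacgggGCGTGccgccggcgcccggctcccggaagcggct
ABCG2: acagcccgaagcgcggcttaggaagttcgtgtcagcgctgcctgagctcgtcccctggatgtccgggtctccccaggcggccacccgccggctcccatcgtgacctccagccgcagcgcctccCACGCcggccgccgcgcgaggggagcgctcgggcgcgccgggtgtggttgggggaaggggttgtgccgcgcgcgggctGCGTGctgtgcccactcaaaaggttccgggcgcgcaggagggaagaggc
ABCC5: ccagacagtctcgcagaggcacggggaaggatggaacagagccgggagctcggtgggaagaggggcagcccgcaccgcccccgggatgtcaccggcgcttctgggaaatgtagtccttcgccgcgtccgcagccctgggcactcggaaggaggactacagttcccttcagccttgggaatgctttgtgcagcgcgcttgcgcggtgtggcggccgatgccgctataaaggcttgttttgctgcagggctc
ABCC4 holds GCGTG 34 and 117 bases before the start, the latter on the opposite strand, and TGACNNNGC on the opposite strand 149 bases before it, counted to the first base of each match. ABCG2, for which the RefSeq table has 5 starts and the one with most CG dinucleotides was used, holds GCGTG 49 and, on the opposite strand, 127 bases before the start. Neither ABCC2 nor ABCC5 holds any of the 3 motifs in this window. The 4 windows also differ in composition, with 45.6% G and C and 1 CG dinucleotide in ABCC2 against 80.4% and 42 in ABCC4, 73.6% and 32 in ABCG2, and 64.8% and 21 in ABCC5. A promoter was at hand for 34 of the 45 members. GCGTG was found in 15 of them (44.1%, against 33.5% of the promoters of 27305 genes), TGACNNNGC in 6 (17.6% against 11.1%) and CAGGTG in 6 (17.6% against 17.4%), all searched on both strands. The members' windows were also richer in G and C (median 63.6% against 59.2%) and in CG dinucleotides (median 20.5 against 12), and GCGTG holds such a dinucleotide. There was no match of one motif overlapping another in the printed windows.

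The arrays were alike in scale, with medians from 6.31 to 6.47 and a standard deviation between arrays of the same group from 0.16 to 0.28 over all genes. No arrays were identical. The labelled states were reflected in the markers of EMT. CDH1, which encodes E-cadherin, fell in all 3 lines, with log2 changes of -5.81 (A549), -2.95 (HCC827) and -3.94 (NCI-H358), while CDH2, which encodes N-cadherin, rose by 1.94, 3.26 and 2.04. VIM and ZEB1 passed the test in HCC827 and NCI-H358, and in A549 each stood 0.79 higher, under 2-fold. Of 5 epithelial markers, 3 fell in A549 and 5 in each of the other lines, and 14 genes typical of other tissues stood between 2.64 and 6.55 with 0 called. In cultured cells measured in bulk, fewer expressing cells and less RNA per cell cannot be told apart.

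Upon EMT the ABC genes that passed the test were mostly lower in A549 and HCC827, and most of those belonged to the drug efflux class. In NCI-H358, 3 were lower and 2 higher, and ABCC3 was the only drug efflux gene among them. A gene was called when its Benjamini-Hochberg adjusted p in limma was below 0.05 over all 19849 genes and its change exceeded 2-fold. In A549, 6 of the 45 members were called, a share of 13.3% beside 8.02% of all genes. All 6 were lower, namely ABCC1, ABCC2, ABCC3, ABCC4, ABCG2 and ABCB6, beside 3.87% of all genes lower and 4.15% higher. In HCC827, 9 members (20%) were called beside 11.5% of all genes. ABCB1, ABCC2, ABCC3, ABCC4, ABCG2, ABCA7 and ABCA12 were lower (15.6% of members, 6.58% of all genes), and ABCC5 and ABCA13 were higher (4.44% of members, 4.89% of all genes). In NCI-H358, 5 members (11.1%) were called beside 9.38% of all genes. ABCC3, ABCA7 and ABCA12 were lower (6.67% of members, 5.42% of all genes), and ABCA1 and ABCC6 were higher (4.44% of members, 3.96% of all genes). The share in NCI-H358 was therefore close to that of all genes.

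Across the lines, 13 of the 45 members (28.9%) were called in at least 1 line, beside 19.4% of all genes. ABCC3 was the 1 member lower in all 3 lines (2.22%, beside 0.907% of all genes), and 0 members were higher in all 3, beside 0.761% of all genes. Being lower in at least 2 lines applied to 6 members, ABCC2, ABCC3, ABCC4, ABCG2, ABCA7 and ABCA12, a share of 13.3% beside 3.88% of all genes. No member was called higher in one line and lower in another. When the fold was left aside, the share of members with an adjusted p below 0.05 was near that of all genes, at 20 of 45 (44.4% beside 43.4%) in A549, 23 (51.1% beside 45.8%) in HCC827 and 21 (46.7% beside 41.4%) in NCI-H358, so smaller changes were about as common in the family as elsewhere. The 3 arrays of the states did not overlap for 23 members in A549 (51.1% beside 52.4% of all genes), 24 in HCC827 (53.3% beside 51.2%) and 23 in NCI-H358 (51.1% beside 51.6%). Under the stricter rule of the study, an adjusted p below 1e-05 and more than 5-fold, 3 members remained in A549 (ABCC2, ABCC4, ABCG2; 6.67% beside 1.9% of all genes), 4 in HCC827 (ABCC2, ABCC3, ABCG2, ABCA12; 8.89% beside 2.95%) and 0 in NCI-H358 (2.17% of all genes).

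A part of the family gave little signal. In 18 of the 45 members the highest group mean lay under 6.43, the median over all genes of the mean over 18 arrays (low signal). They include the bile transporters ABCB4 and ABCB11 and the plant sterol transporters ABCG5 and ABCG8. Of these 18, ABCB1 and ABCA13 were called, each in HCC827, and the other 16 in no line upon EMT. The range of the genes typical of other tissues reaches 6.55, above 6.43, so lying near its top does not by itself show background. Over all 45 members the median changes were -0.03, 0.01 and 0.04 in A549, HCC827 and NCI-H358, beside -0.02, 0.01 and 0.02 for all genes.

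**Figure D1:**
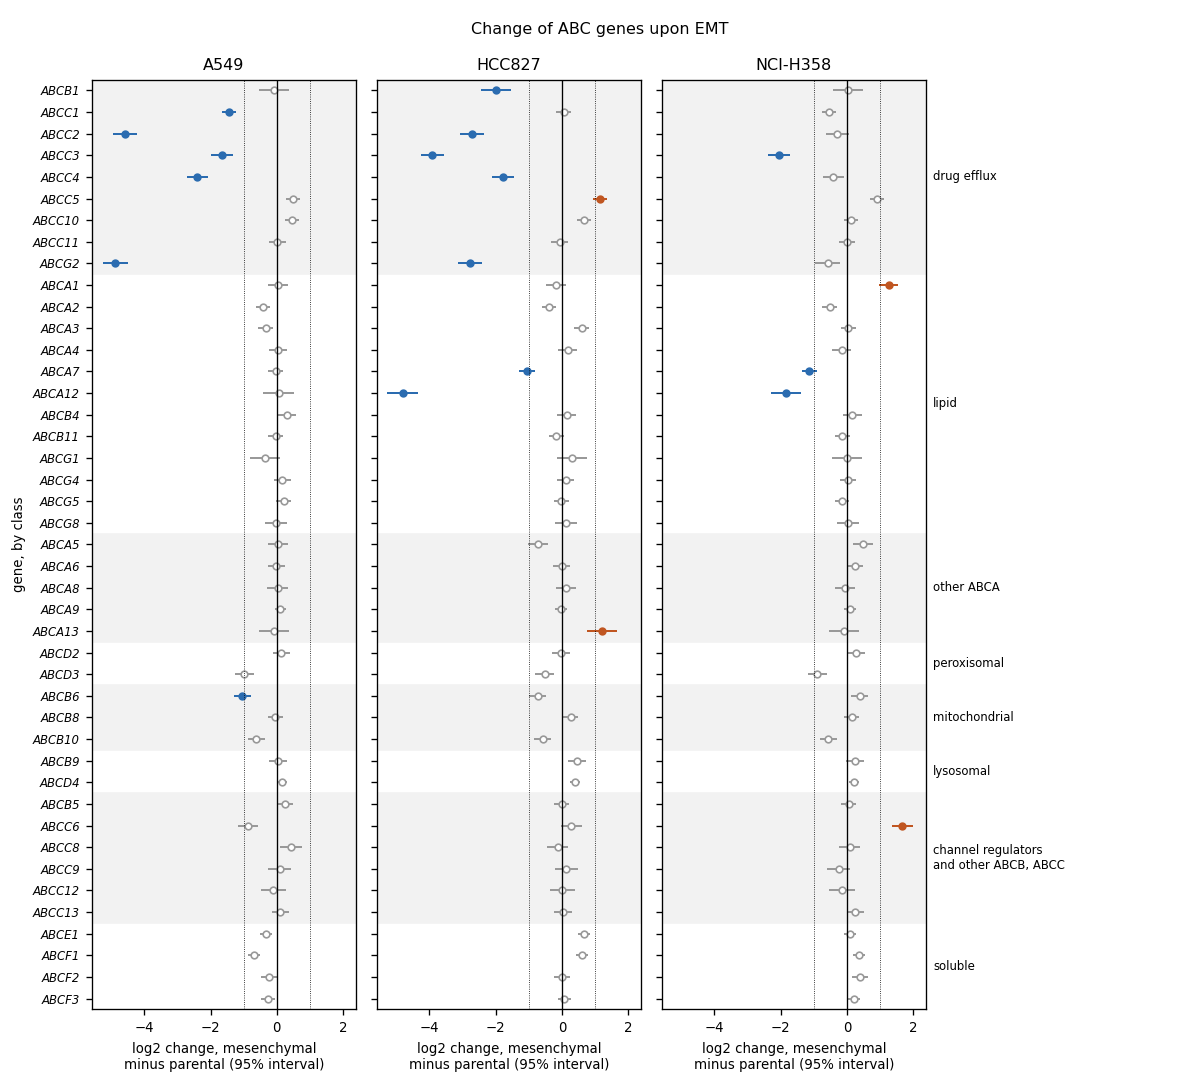
Log2 change upon EMT (x axis, mesenchymal minus parental, with its 95% interval from limma) of 43 of the 45 ABC genes (y axis, grouped by class) in A549, HCC827 and NCI-H358, with filled blue points for genes called lower, filled orange points for genes called higher and open points for the rest. Dotted lines mark 2-fold, and most filled points lie in the drug efflux rows of A549 and HCC827, where the lowest change in A549 is -4.88 for ABCG2.

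The 9 drug efflux genes showed the widest changes of any class in A549. Their median change was -1.45 in A549, with 5 called lower and 0 higher, and -1.78 in HCC827, with 5 lower and 1 higher. In NCI-H358 it was -0.29, with 1 lower and 0 higher. ABCC2, ABCC3, ABCC4 and ABCG2 were called lower in both A549 and HCC827.

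ABCG2 (Entrez gene 9429), the breast cancer resistance protein, exports urate and a broad range of drugs including several kinase inhibitors. Parental A549 arrays read 10.48, 10.34 and 10.49, and the mesenchymal arrays 5.16, 5.95 and 5.55. HCC827 read 7.91, 7.68 and 7.79 before and 5.21, 4.67 and 5.18 after EMT. In NCI-H358 the parental arrays read 7.50, 7.46 and 7.29 and the mesenchymal arrays 6.82, 6.94 and 6.76. The groups did not overlap in any line, but the gap was wide in A549 and narrow in NCI-H358. The mesenchymal arrays of A549 and HCC827 lay within the range of the genes typical of other tissues, so their folds may understate the change. The log2 change was -4.88 ± 0.16 (SE, limma adjusted p = 1.97e-13, a 29.5-fold decrease) in A549 and -2.78 (adjusted p = 2.25e-10, 6.85-fold) in HCC827. In NCI-H358 it was -0.58 (adjusted p = 0.00793, 95% interval -0.92 to -0.23), short of 2-fold.

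ABCC2 (Entrez gene 1244) exports bilirubin glucuronides and other conjugates across the apical membrane. It read 9.76, 9.55 and 9.69 in parental and 5.10, 5.40 and 4.73 in mesenchymal A549 cells. In HCC827 the levels were 7.89, 7.63 and 7.47 before and 4.98, 5.04 and 4.79 after EMT. Parental NCI-H358 cells were already at 5.15, 5.06 and 5.03, and their mesenchymal derivatives at 4.86, 4.50 and 5.01. After EMT, then, all 3 lines lay between 4.50 and 5.40, within the range of the genes typical of other tissues. Whether this shared level is a floor of the probe set was not tested. ABCC2 fell 24.1-fold in A549 (log2 change -4.59 ± 0.15, SE, adjusted p = 2.10e-13) and 6.59-fold in HCC827 (-2.72, adjusted p = 1.39e-10). The change in NCI-H358 was -0.29, with a 95% interval from -0.62 to 0.03 and a limma adjusted p of 0.153.

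ABCC3 (Entrez gene 8714) exports conjugates and bile salts across the basolateral membrane. Its parental levels were 11.60, 11.47 and 11.45 in A549 and its mesenchymal levels 9.93, 9.87 and 9.72. The corresponding HCC827 values were 11.36, 10.76 and 10.73, then 7.19, 6.96 and 6.95. NCI-H358 started lower, at 8.13, 8.31 and 8.49, and read 6.23, 6.47 and 6.08 after EMT. No parental array of a line was as low as a mesenchymal array of that line. ABCC3 fell 3.17-fold in A549 (log2 change -1.66, adjusted p = 6.33e-08), 15.1-fold in HCC827 (-3.91, adjusted p = 7.23e-13) and 4.15-fold in NCI-H358 (-2.05, adjusted p = 3.82e-09), each with an SE of 0.15.

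ABCC4 (Entrez gene 10257) exports cyclic nucleotides, prostaglandins and nucleoside analogs. A549 arrays were at 7.98, 7.92 and 8.07 before and 5.37, 5.83 and 5.57 after EMT, and HCC827 arrays at 7.58, 7.76 and 7.41 before and 5.68, 5.62 and 6.11 after. NCI-H358 arrays stood at 6.96, 7.35 and 7.38 in the parental and 6.84, 6.79 and 6.84 in the mesenchymal state. Its level thus separated the states by more than 1 log2 unit on every array of A549 and HCC827, and by far less in NCI-H358. The decrease was 5.28-fold in A549 (log2 change -2.40, adjusted p = 3.62e-10) and 3.44-fold in HCC827 (-1.78, adjusted p = 1.21e-08). For NCI-H358 the change was -0.41 (95% interval -0.71 to -0.11, adjusted p = 0.0284), and without single arrays its adjusted p rose to as much as 0.12.

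ABCC1 and ABCB1, the most studied drug exporters beside ABCG2, were each called lower in 1 line. ABCC1 (Entrez gene 4363) exports glutathione conjugates and leukotrienes. It stood at 8.43, 8.36 and 8.40 in parental A549 cells and at 6.97, 7.03 and 6.84 after EMT, a log2 change of -1.45 ± 0.09 (SE, adjusted p = 6.88e-10, 2.73-fold). The HCC827 groups overlapped, at 6.62, 6.44 and 6.29 against 6.36, 6.50 and 6.65, with a change of 0.05 (95% interval -0.14 to 0.24, adjusted p = 0.683). NCI-H358 moved from 6.30, 6.41 and 6.30 to 5.70, 5.84 and 5.87, a change of -0.53 (adjusted p = 9.87e-05) under 2-fold.

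ABCB1 (Entrez gene 5243) encodes P-glycoprotein, which pumps many hydrophobic drugs out of the cell. Parental HCC827 was the 1 group in which it stood out, at 4.99, 6.10 and 5.85, and its mesenchymal arrays read 3.66, 3.55 and 3.79. Every A549 and NCI-H358 array lay between 3.20 and 3.68. These levels are within the range of the genes typical of other tissues, and ABCB1 is 1 of the 18 low-signal members. In HCC827 it fell 3.95-fold (log2 change -1.98 ± 0.20, SE, adjusted p = 2.75e-07). The change was -0.08 (95% interval -0.51 to 0.34, adjusted p = 0.787) in A549 and 0.03 (adjusted p = 0.928) in NCI-H358. No rise of ABCB1 was detected in the mesenchymal derivatives, and in A549 and NCI-H358 a small rise may have been missed at these levels.

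ABCC5 (Entrez gene 10057), an exporter of cyclic nucleotides and nucleotide analogs, stood higher after EMT on every array of each line. It read 7.66, 7.76 and 7.42 in parental and 8.11, 8.17 and 8.04 in mesenchymal A549 cells. HCC827 went from 7.53, 7.70 and 7.47 to 8.68, 8.69 and 8.78, and NCI-H358 from 8.29, 8.38 and 8.18 to 9.19, 9.10 and 9.28. It rose 2.22-fold in HCC827 (log2 change 1.15, adjusted p = 7.67e-09). The changes of 0.90 in NCI-H358 (adjusted p = 2.09e-07, 1.87-fold) and 0.49 in A549 (adjusted p = 0.000199) did not reach 2-fold. ABCC10, which also exports taxanes, was higher by 0.46 (adjusted p = 0.000295) in A549 and 0.67 (adjusted p = 3.71e-06) in HCC827 and by 0.12 (adjusted p = 0.288) in NCI-H358, all below 2-fold. ABCC11, a low-signal member, changed by at most 0.07 on the log2 scale in either direction.

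**Figure D2:**
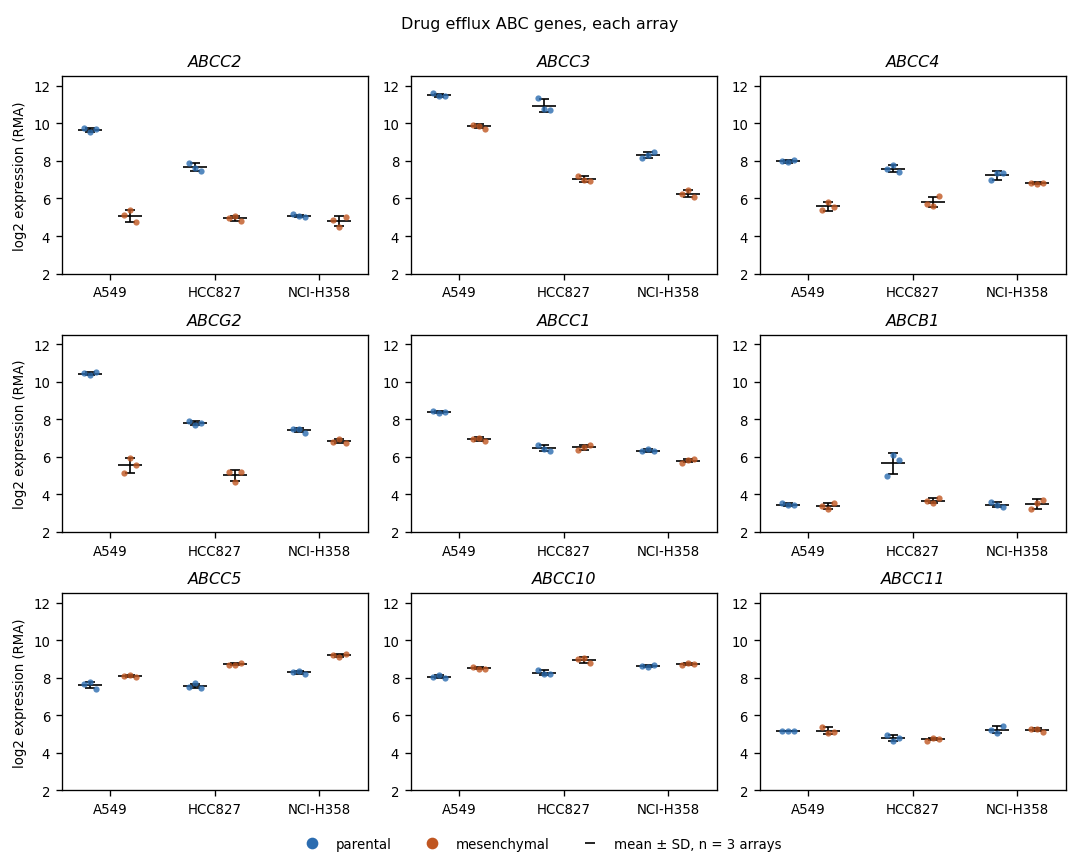
Log2 expression (y axis) of the 9 drug efflux ABC genes on each array of parental (blue) and mesenchymal (orange) A549, HCC827 and NCI-H358 cells (x axis), with horizontal bars for the mean and whiskers for the SD of 3 arrays. ABCC2 lies between 4.50 and 5.40 on all mesenchymal arrays from different parental levels, within the range of genes typical of other tissues. ABCC5 is higher in the mesenchymal arrays of every line.

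Among the 12 lipid transporters, 7 of them low-signal, changes were fewer and ran in both directions. None was called in A549, where the class median was -0.00. In HCC827 2 were lower and 0 higher (median 0.05), and in NCI-H358 2 were lower and 1 higher (median -0.08). ABCA12 and ABCA7 accounted for the decreases in both lines, and ABCA1 for the increase.

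ABCA12 (Entrez gene 26154) loads glucosylceramide into the lamellar granules of keratinocytes. Parental HCC827 cells read 8.28, 7.33 and 7.51 and their mesenchymal derivatives 2.91, 2.80 and 2.96. Parental NCI-H358 cells had 4.42, 5.16 and 4.87 and the derivatives 3.03, 3.11 and 2.80. All 6 A549 arrays lay between 2.97 and 3.44, close to the mesenchymal arrays of the other lines. These low levels lie within the range of the genes typical of other tissues, 2.64 to 6.55, so the folds below are set against a signal near background and may understate the change. ABCA12 fell 28.1-fold in HCC827 (log2 change -4.81 ± 0.21, SE, adjusted p = 3.94e-12) and 3.58-fold in NCI-H358 (-1.84, adjusted p = 1.07e-06), and the A549 change was 0.05 (adjusted p = 0.867).

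ABCA7 (Entrez gene 10347), a phospholipid exporter related to ABCA1, fell in the same pair of lines with smaller steps. HCC827 went from 7.88, 8.20 and 8.17 to 6.91, 7.10 and 7.09 and NCI-H358 from 8.11, 7.90 and 8.003 to 6.79, 6.91 and 6.90. A549 read 7.08, 7.06 and 6.91 before and 7.03, 6.84 and 7.07 after EMT, so its groups overlapped. The log2 change was -1.05 (adjusted p = 6.27e-08, 2.07-fold) in HCC827, -1.14 (adjusted p = 2.87e-08, 2.20-fold) in NCI-H358 and -0.03 (adjusted p = 0.813) in A549. The HCC827 value sits at the 2-fold threshold. It ranged from -1.15 to -0.99 as single arrays were left out and was under 2-fold without parental array 2 or mesenchymal array 1 of that line.

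ABCA1 (Entrez gene 19) passes cholesterol and phospholipid to lipid-poor apolipoprotein A-I. In NCI-H358 it stood at 8.32, 8.56 and 8.57 before and 9.78, 9.76 and 9.68 after EMT, an increase of 1.26 ± 0.13 (SE, adjusted p = 2.59e-07, 2.39-fold). HCC827 parental cells were already at 9.78, 9.66 and 9.70, and their derivatives read 9.41, 9.45 and 9.77, a change of -0.17 (adjusted p = 0.299). A549 read 8.17, 8.24 and 8.38 before and 7.97, 8.54 and 8.37 after, a change of 0.03 (adjusted p = 0.881). Of the remaining lipid genes with more than low signal, ABCA2 changed by -0.42, -0.39 and -0.52 in A549, HCC827 and NCI-H358 (adjusted p = 0.000811, 0.00152 and 0.000109). The surfactant lipid transporter ABCA3 changed by -0.34 in A549 and 0.05 in NCI-H358 and stood 0.60 higher in mesenchymal HCC827 cells (adjusted p = 3.25e-05). None of these reached 2-fold.

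In the other ABCA genes, 4 of 5 with low signal, ABCA13 (Entrez gene 154664) was called in HCC827 alone. Its arrays there read 3.52, 3.72 and 3.98 in parental and 4.90, 4.53 and 5.44 in mesenchymal cells, an increase of 1.22 ± 0.20 (SE, adjusted p = 6.51e-05, 2.32-fold). Without mesenchymal array 3 the increase was 0.97, under 2-fold. These levels are low, within the range of the genes typical of other tissues. A549 arrays lay between 2.32 and 2.74, and NCI-H358 arrays between 4.45 and 5.11, with changes of -0.07 and -0.10. ABCA5 changed by -0.71 in HCC827 (adjusted p = 0.000182), by 0.47 in NCI-H358 (adjusted p = 0.00641) and by 0.04 in A549.

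**Figure D3:**
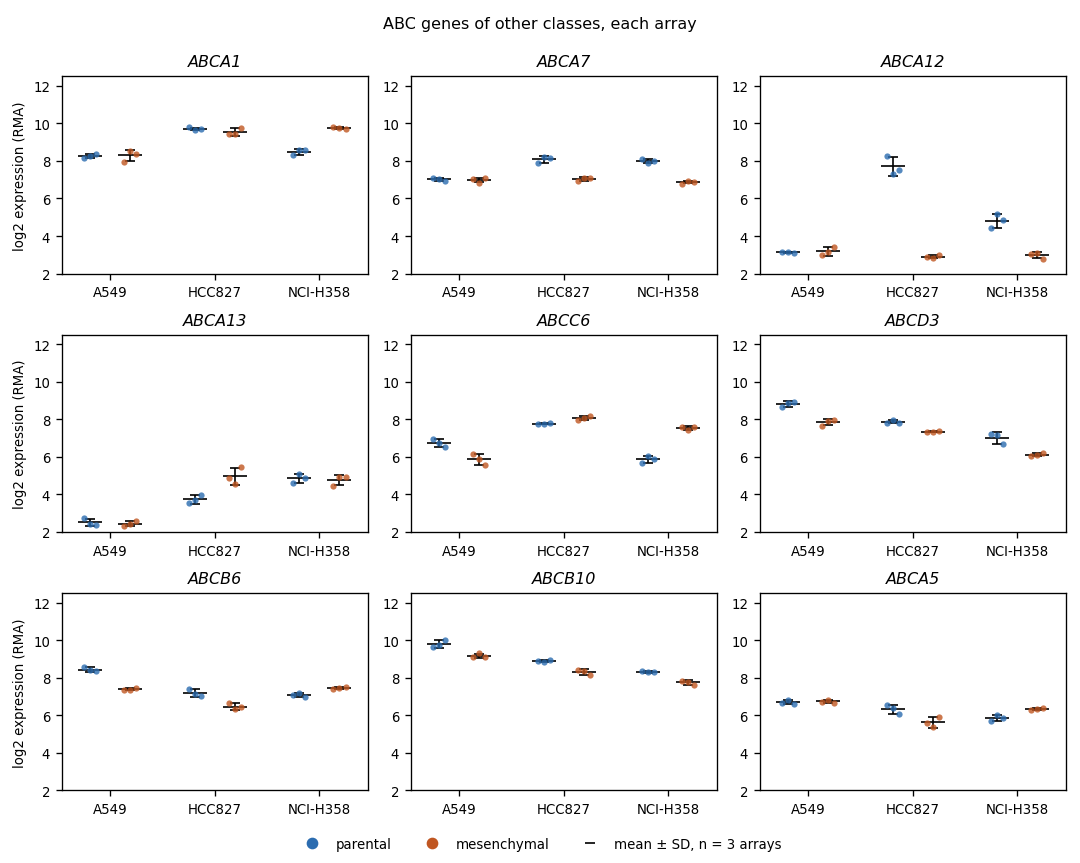
Log2 expression (y axis) of 9 ABC genes outside the drug efflux class on each array of parental (blue) and mesenchymal (orange) A549, HCC827 and NCI-H358 cells (x axis), with horizontal bars for the mean and whiskers for the SD of 3 arrays. ABCA12 drops to about 3 in HCC827 and NCI-H358, the level of both A549 states, ABCC6 is higher after EMT in NCI-H358 and lower in A549, and ABCD3 and ABCB10 are lower in each line by less than 2-fold.

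None of the 3 peroxisomal transporters was called in any line, although ABCD3 came close. ABCD3 (Entrez gene 5825), the 70 kDa peroxisomal membrane protein, imports branched-chain fatty acids and bile acid precursors. A549 went from 8.67, 8.84 and 8.95 to 7.65, 7.91 and 7.95, HCC827 from 7.81, 7.96 and 7.83 to 7.35, 7.33 and 7.36, and NCI-H358 from 7.20, 7.19 and 6.66 to 6.07, 6.10 and 6.20. The mesenchymal arrays were below the parental arrays in each line. The log2 changes were -0.99 ± 0.12 (SE, adjusted p = 3.79e-06, 1.98-fold), -0.52 (adjusted p = 0.00175) and -0.89 (adjusted p = 1.04e-05). Its A549 value passed 2-fold without parental array 1, mesenchymal array 2 or mesenchymal array 3, with a lowest value of -1.06, and its NCI-H358 value did so without parental array 3, at -1.07. ABCD2, which imports very long-chain fatty acids, was low-signal, with changes of 0.13, -0.03 and 0.28.

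The 4 mitochondrial transporters included 1 call. ABCB6 (Entrez gene 10058), which binds heme and porphyrins, read 8.58, 8.39 and 8.33 in parental and 7.37, 7.36 and 7.45 in mesenchymal A549 cells. It fell there 2.06-fold (log2 change -1.04 ± 0.10, SE, adjusted p = 2.90e-07), and without parental array 1 the change was -0.97, under 2-fold. HCC827 moved the same way, from 7.42, 7.14 and 7.03 to 6.64, 6.31 and 6.45, by -0.73 (adjusted p = 1.33e-05). NCI-H358 moved in the opposite direction, from 7.10, 7.18 and 6.97 to 7.40, 7.48 and 7.53, by 0.38 (adjusted p = 0.00612). ABCB10, which supports heme synthesis, changed by -0.62, -0.58 and -0.56 in A549, HCC827 and NCI-H358 (adjusted p = 8.91e-05, 0.00013 and 0.000243), all short of 2-fold. ABCB8 changed by -0.04, 0.26 and 0.15.

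Set side by side, the classes differed in how many members were called. Upon EMT in A549, HCC827 and NCI-H358, where 8.02%, 11.5% and 9.38% of all genes were called, 5, 6 and 1 of the 9 drug efflux genes were called, beside 0, 2 and 3 of the 12 lipid genes, 0, 0 and 0 of the 3 peroxisomal genes and 1, 0 and 0 of the 4 mitochondrial genes. The median log2 changes were -1.45, -1.78 and -0.29 for drug efflux and -0.00, 0.05 and -0.08 for lipid genes, beside -0.02, 0.01 and 0.02 for all genes. These counts describe small lists and carry no test of one class against another.

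Among the channel regulators and the other ABCB and ABCC genes, 4 of 6 with low signal, ABCC6 was called in NCI-H358. ABCC6 (Entrez gene 368) mediates release of ATP from cells, and its loss causes ectopic mineralization. It has near-identical pseudogenes that its probe set may also read, so its level is uncertain. In NCI-H358 it rose from 5.68, 6.03 and 5.88 to 7.60, 7.41 and 7.59, by 1.67 ± 0.13 (SE, adjusted p = 1.50e-08, 3.19-fold). A549 had 6.98, 6.74 and 6.50 before and 6.15, 5.86 and 5.59 after EMT, a change of -0.87 (adjusted p = 3.83e-05), and the change passed 2-fold, at -1.01, without mesenchymal array 1. HCC827 read 7.77, 7.75 and 7.80 before and 7.96, 8.07 and 8.15 after, a change of 0.29 (adjusted p = 0.0909). ABCC6 and ABCC1 are next to each other on chromosome 16 in RefSeq with 0 coding genes between them, and in NCI-H358 they changed by 1.67 and -0.53. ABCC8 and ABCC9, the sulfonylurea receptors of ATP-sensitive potassium channels, were not called in any line.

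None of the lysosomal and soluble members was called upon EMT in any line. ABCD4, which takes part in lysosomal export of cobalamin, stood 0.39 higher in HCC827 (adjusted p = 2.64e-05), 0.22 higher in NCI-H358 (adjusted p = 0.00543) and 0.17 higher in A549 (adjusted p = 0.0281), all under 2-fold. The 4 soluble genes were all on the negative side in A549 (median -0.30) and all on the positive side in HCC827 (median 0.33) and NCI-H358 (median 0.29), and none reached 2-fold. ABCE1, a ribosome recycling factor, changed by -0.33 (adjusted p = 0.00165), 0.67 (adjusted p = 9.63e-07) and 0.09 (adjusted p = 0.391). ABCF1, which acts in translation initiation, stood at 10.16, 10.16 and 10.13 in parental and 9.40, 9.46 and 9.52 in mesenchymal A549 cells, a change of -0.69 (adjusted p = 3.93e-07). In HCC827 it went from 9.62, 9.81 and 9.82 to 10.32, 10.35 and 10.36, a change of 0.60 (adjusted p = 1.47e-06), and in NCI-H358 the change was 0.38 (adjusted p = 0.000275).

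The change upon EMT differed between lines for 14 of the 45 members (31.1%) in at least 1 pair of lines, beside 21.5% of all genes, when the difference itself was tested with an adjusted p below 0.05 and a size above 1 on the log2 scale. HCC827 differed from A549 in 10 members (22.2%, beside 13.4% of all genes), NCI-H358 from A549 in 9 (20%, beside 12.7%) and NCI-H358 from HCC827 in 11 (24.4%, beside 11%). The changes of ABCG2 and ABCC2 were each 4.30 higher, and so less negative, in NCI-H358 than the A549 changes (adjusted p = 1.42e-10 and 7.21e-11), and ABCC4 differed by 1.99 in the same direction (adjusted p = 4.02e-07). ABCC2 in parental NCI-H358 cells, at 5.03 to 5.15, was already within the range of the genes typical of other tissues. Whether a further fall could have been read there was not tested. ABCC3 differed the other way, by -2.25 between HCC827 and A549 (adjusted p = 1.37e-07). ABCA12 differed by -4.87 between HCC827 and A549 (adjusted p = 6.39e-10), with A549 near background in both states. For ABCC6 the change was 2.54 higher in NCI-H358 than that of A549 (adjusted p = 8.96e-09), and for ABCF1 it was 1.28 higher in HCC827 than that of A549 (adjusted p = 1.51e-08). The time in TGFβ may also have differed between these lines, and its part was not tested. These differences share arrays, since each line enters 2 of the 3 pairs.

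**Figure D4:**
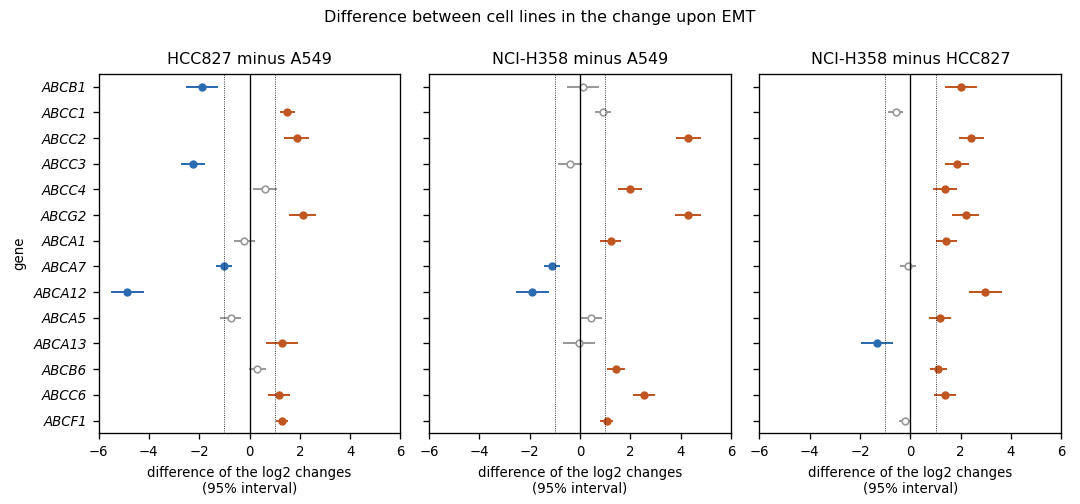
Difference between cell lines in the log2 change upon EMT (x axis, with its 95% interval from limma) for the 14 ABC genes (y axis) called in at least 1 pair of lines, with filled blue points for called values below 0, filled orange points for called values above 0 and open points for the rest. Dotted lines mark a difference of 1, and ABCC2 and ABCG2 lie at 4.30 in the comparison of NCI-H358 with A549.

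The parental lines themselves expressed the family at different levels. Of the 45 members, 18 (40%) differed in at least 1 pair of parental lines, beside 30.7% of all genes. Parental HCC827 differed from parental A549 in 12 members (26.7%, beside 18.8%), of which 7 were higher and 5 lower (beside 10.2% and 8.62% of all genes). Parental NCI-H358 differed from A549 in 12 (26.7%, beside 20.4%), of which 2 were higher and 10 lower (beside 10.7% and 9.79%). Between NCI-H358 and HCC827 there were 9 (20%, beside 15.2%), 2 higher and 7 lower (beside 7.27% and 7.91%). Relative to A549, HCC827 had more ABCA12 (log2 difference 4.57, adjusted p = 3.69e-12) and ABCB1 (2.19, adjusted p = 4.68e-08) and less ABCG2 (-2.64, adjusted p = 2.35e-10), ABCC2 (-2.01, adjusted p = 4.14e-09) and ABCG1 (-2.01, adjusted p = 1.27e-07). ABCG1 and ABCB1 are low-signal members, and ABCA12 was near background in A549, so the sizes of these differences are uncertain. NCI-H358 had less ABCC2 (-4.59, adjusted p = 5.76e-14), ABCC3 (-3.19, adjusted p = 3.91e-12), ABCG2 (-3.02, adjusted p = 3.36e-11) and ABCC1 (-2.06, adjusted p = 1.92e-12) than A549, and more of the low-signal ABCA13 (2.34, adjusted p = 1.50e-08). NCI-H358 also stood below HCC827 in ABCA12 (-2.89, adjusted p = 2.20e-09), ABCC3 (-2.64, adjusted p = 8.98e-11), ABCC2 (-2.58, adjusted p = 2.15e-10), ABCB1 (-2.20, adjusted p = 5.32e-08) and ABCC6 (-1.91, adjusted p = 1.60e-09). A parental array enters both this comparison and the change upon EMT of its line, so a high parental level and a large decrease are not independent measurements.

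Genes known to regulate or work with these transporters were read from lists chosen by function. In A549, HCC827 and NCI-H358, 3.87%, 6.58% and 5.42% of all genes were called lower and 4.15%, 4.89% and 3.96% higher, and the small counts below are to be read against these shares. Of 16 transcriptional regulators, 0 were called higher in any line, while 1 was lower in A549 and 2 in each of HCC827 and NCI-H358. AHR, the aryl hydrocarbon receptor, which induces ABCG2 in other systems, fell in all 3 lines, with log2 changes of -2.62, -1.81 and -1.85 (adjusted p = 3.63e-11, 3.24e-09 and 3.08e-09). PPARG, a nuclear receptor of lipid metabolism, fell in HCC827 (-2.76, adjusted p = 3.66e-14) and NCI-H358 (-1.38, adjusted p = 3.29e-10), and its change in A549 was -0.41. NFE2L2, which encodes NRF2, changed by -0.08, -0.05 and -0.00. Of 6 NRF2 target genes 2, 2 and 1 were called lower and 0 higher in A549, HCC827 and NCI-H358. They were SLC7A11 and GCLC in A549, NQO1 and TXNRD1 in HCC827, and TXNRD1 in NCI-H358. The median changes of the 6 were -0.81, 0.04 and 0.02, with 6, 2 and 3 of them negative.

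Of 10 peroxisome partners, SLC27A2, which activates very long-chain fatty acids, fell in all 3 lines (-3.85, -3.35 and -3.64, adjusted p = 1.61e-09, 6.81e-09 and 2.92e-09), and ACAA1, the peroxisomal thiolase, fell in HCC827 (-1.77). Of 12 sterol and lipoprotein partners, 1 was higher and 4 lower in A549, 0 higher and 2 lower in HCC827 and 1 higher and 1 lower in NCI-H358. MYLIP, the ubiquitin ligase of the LDL receptor, was lower in all 3 lines (-1.65, -1.61 and -1.20). Of 9 mitochondrial heme and iron-sulfur partners, NFS1 was called, in HCC827 alone (-1.20). Neither the 2 potassium channel pores that pair with ABCC8 and ABCC9 nor the 2 cobalamin partners of ABCD4 were called. The family genes TAP1 and TAP2, peptide transporters of antigen presentation whose symbols fall outside the naming rule, were called lower in NCI-H358 (TAP1, -1.23) and A549 (TAP2, -1.15). In HCC827 TAP2 moved the other way, by 0.71, under 2-fold. CFTR, a further family gene outside that rule, was not called in any line.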

How the data were processed

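Total RNA of 18 cultures was hybridized to Affymetrix U133 Plus 2.0 arrays. The deposited values are log2 signals that the authors computed by RMA, with 1 probe set per gene chosen by a rule not given in the sources used here. RMA equalizes signal distributions between arrays and compresses low signals. Arrays have no sequencing depth, and 3 arrays per group limit the precision. The study describes the 3 samples of a group as separate biological samples made at the same time. The labels give no replicate numbers, so replicates were numbered in accession order.

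A linear model of the 18 arrays with 6 groups and no covariate was fitted by lmFit and moderated by eBayes (limma 3.58.1, R 4.3.3). Calls needed a Benjamini-Hochberg adjusted p below 0.05 over 19849 genes and more than 2-fold. An exact two-sided permutation test of 3 arrays against 3 cannot go below p = 0.1. Intervals are 95%. Of the 45 probe sets, 24 were of the plain type, 4 of a type shared by transcripts of a gene, 16 of a type that can match transcripts of several genes, and 1 of a type open to cross-hybridization. Other probe sets of these genes were not analysed here. All 45 gene IDs matched RefSeq with the same symbol, and 1 further gene placed in a class, ABCA10, was not analysed here. Promoters came from RefSeq (GRCh38.p14), and bases after each start were left out. The script was tested on simulated data.

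The members and lists were chosen with earlier results of these data known. The genes named were members called in at least 1 line, ABCB1, ABCC1 and ABCG2, the member of each class with the highest mean signal (a rule of choice, since probe sets are not comparable in level), and up to 5 members per pair of parental lines. ABCC10, ABCC11, ABCA2, ABCA3, ABCB8, ABCB10, ABCD2, ABCF1, ABCC8 and ABCC9 were named after their values were seen. Some results are not reported here. Alternatives were other fold and p thresholds, separate fits per line, an intensity trend, robust eBayes, centring, a filter on dim genes, Student's t-test and each array left out.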

Additional observations from a re-analysis of the deposited data

Results flagged for a closer look

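The change upon EMT differed between cell lines for 14 ABC genes in 30 tests of the difference, each a limma contrast in the fit of all 18 arrays, and these are given as the change in the first line minus that in the second on the log2 scale. Between HCC827 and A549, the difference was above 0 for ABCG2 (2.11, adjusted p = 1.03e-06), ABCC2 (1.87, adjusted p = 2.11e-06), ABCC1 (1.504, adjusted p = 4.62e-08), ABCA13 (1.29, adjusted p = 0.00122), ABCF1 (1.28, adjusted p = 1.51e-08) and ABCC6 (1.16, adjusted p = 7.67e-05). For the same pair, the difference was below 0 for ABCA12 (-4.87, adjusted p = 6.39e-10), ABCC3 (-2.25, adjusted p = 1.37e-07), ABCB1 (-1.90, adjusted p = 3.47e-05) and ABCA7 (-1.02, adjusted p = 8.96e-06). Between NCI-H358 and A549, the difference was above 0 for ABCG2 (4.30, adjusted p = 1.42e-10), ABCC2 (4.30, adjusted p = 7.21e-11), ABCC6 (2.54, adjusted p = 8.96e-09), ABCC4 (1.99, adjusted p = 4.02e-07), ABCB6 (1.42, adjusted p = 5.40e-07), ABCA1 (1.23, adjusted p = 2.42e-05) and ABCF1 (1.06, adjusted p = 1.61e-07). For the same pair, the difference was below 0 for ABCA12 (-1.89, adjusted p = 4.71e-05) and ABCA7 (-1.10, adjusted p = 3.86e-06). Between NCI-H358 and HCC827, the difference was above 0 for ABCA12 (2.97, adjusted p = 3.90e-07), ABCC2 (2.43, adjusted p = 1.32e-07), ABCG2 (2.20, adjusted p = 8.43e-07), ABCB1 (2.01, adjusted p = 2.37e-05), ABCC3 (1.86, adjusted p = 1.73e-06), ABCA1 (1.43, adjusted p = 5.61e-06), ABCC6 (1.38, adjusted p = 1.50e-05), ABCC4 (1.37, adjusted p = 3.19e-05), ABCA5 (1.18, adjusted p = 5.68e-05) and ABCB6 (1.12, adjusted p = 1.06e-05). For the same pair, the difference was below 0 for ABCA13 (-1.31, adjusted p = 0.00123). With single arrays left out, the ABCA7 difference between HCC827 and A549 was under the threshold in 6 of 18 refits, and the ABCF1 difference between NCI-H358 and A549 in 1. Refits without an array of the line outside a pair could not move the difference of that pair. No group has more than 3 arrays, so single arrays were not screened against the rest of their group, and no explanation of these differences was tested.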

How the results depend on the processing

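The number of ABC genes called depended mainly on the fold threshold. At 1.5-fold, for which no share of all genes was computed, it was 10 in A549 and 15 in HCC827 upon EMT. For parental NCI-H358 it was 19 against A549 and 15 against HCC827, and the other comparisons at 1.5-fold are not reported here. With no fold threshold it was 20, 23 and 21 upon EMT in A549, HCC827 and NCI-H358, 21 for the difference of the change between HCC827 and A549 (46.7% of members, 42.2% of all genes), 18 between NCI-H358 and A549 (40%, 42.8%), and 28, 27 and 23 for the parental pairs (62.2%, 60% and 51.1% of members, 57.1%, 57.9% and 52.6% of all genes). Under the rule of the study it was 3, 4 and 0 upon EMT, 1, 3 and 2 for the differences (2.92%, 3.01% and 2.06% of all genes) and 2, 4 and 3 for the parental pairs (5.15%, 6.19% and 3.32%). At an unadjusted p below 0.05 and more than 2-fold, Student's t-test called 6, 9 and 5 upon EMT, as it did after adjustment. The general methods name this test, while the array methods name limma. An adjusted p below 0.01, an intensity trend, robust eBayes and separate fits per line left every value they were run on with its direction and call. With the dimmest genes left out, 30 members remained. Centring each array on its median took ABCB6 in A549 and ABCA7 in HCC827 under 2-fold, ABCC6 between parental HCC827 and A549 as well, and turned the uncalled ABCA7 change in A549 to 0.0340.

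With single arrays left out, counts ranged from 6 to 7 in A549, 8 to 9 in HCC827 and 5 to 6 in NCI-H358, from 9 to 12 for the difference between HCC827 and A549 and from 8 to 9 between NCI-H358 and A549 (11 in every refit between NCI-H358 and HCC827), and from 11 to 13, 12 to 13 and 8 to 9 for the parental pairs. Of 1494 refits of called values, 13 fell under the threshold and 0 changed sign. Many of these refits left out an array of a group outside the comparison, which could not move the change or its sign. The counts of refits thus overstate how far the values were tried. Signs changed for uncalled values, in A549 for ABCA7 (-0.0886 to 0.0348), ABCA13 (-0.146 to 0.0369), ABCA1 (-0.0922 to 0.192), ABCA5 (-0.00814 to 0.0897) and ABCA12 (-0.0716 to 0.161), in HCC827 for ABCC1 (-0.0257 to 0.138), and in NCI-H358 for ABCA13 (-0.216 to 0.0600) and ABCB1 (-0.0701 to 0.173). Other calls lost were the ABCA7 difference between HCC827 and A549 (-0.95 at its smallest, lost in 6 of 18 refits), the ABCF1 difference between NCI-H358 and A549 (0.99 without NCI-H358 parental array 3), parental ABCC6 between HCC827 and A549 (0.92 without A549 parental array 3) and parental ABCA13 between NCI-H358 and HCC827 (0.999 without NCI-H358 parental array 2). No paired analysis was possible because the labels give no replicate numbers. The 3 arrays per group and 1 probe set per gene limit these results, and probe sets near background may understate changes.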
